A study of Mus musculus with 6 samples.

Results

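The D-type cyclins Ccnd1, Ccnd2 and Ccnd3, their kinase partners Cdk4 and Cdk6, the kinase inhibitors Cdkn1a, Cdkn1b, Cdkn1c and Cdkn2c, and Rb1, the substrate they converge on, were followed in lung epithelial cells sorted with and without a reporter of Piwil4. These are 10 of the 48577 genes counted. The set was chosen by the measured rise of Ccnd2 in the reporter-positive cells, so its difference between the fractions is described and not tested. The other 9 were added as its paralogs, partners, inhibitors and substrate. All 10 had rows in the count tables, and 9 passed the filter on low counts. Cdkn2c did not.

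D-type cyclins bind and activate the kinases CDK4 and CDK6. The active complexes phosphorylate the retinoblastoma protein RB, which releases E2F transcription factors and lets a cell pass from G1 into S phase. INK4 inhibitors such as p18, from Cdkn2c, bind CDK4 and CDK6 and displace the cyclin, while the CIP/KIP proteins p21, p27 and p57, from Cdkn1a, Cdkn1b and Cdkn1c, bind whole cyclin and kinase complexes. Multiciliated airway cells are postmitotic, and they employ parts of the cell cycle machinery while they amplify centrioles and build motile cilia.

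RNA came from lungs of C57BL/6 Miwi2tdTomato mice, in which tdTomato reports Piwil4, the gene of the Piwi protein MIWI2. Cells without CD45, a leukocyte marker, and with EpCAM, an epithelial marker, were sorted into tdTomato-negative and tdTomato-positive fractions, both called multiciliated by the labels, with no gate for cilia given in the sources used here. Each of 3 mice gave 1 library of each fraction, so there were 3 negative and 3 positive libraries, and every animal carried the reporter. The labels give no age and no treatment. RNA was amplified before the libraries were made, with the Ovation RNA-Seq System V2.

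Counts in genes ranged from 5330584 to 6326395 per library, and 3 reads corresponded to 0.475 to 0.585 CPM (reads of a gene scaled to the TMM-adjusted total of its library). The tdTomato row had no read in the negative libraries and 16 to 37 in the positive ones, and Piwil4 was at 29.97 to 45.6 and 95.7 to 111 CPM. On the leading principal component, mouse 1's tdTomato-positive library lay at 79.4 and the other 5 between -35.2 and 7.80. The 10 multiciliated markers listed, all tested, summed to 4532 to 4643 CPM in the negative and 4849 to 5070 CPM in the positive libraries. That sum was carried by Dnah5 (means of 1505 and 1406 CPM), Dnah9 (969 and 1050) and Ccdc39 (966 and 724). Foxj1 averaged 246 and 514 CPM and Tppp3 252 and 474. Of the 10, 7 had a log2 fold change above 0 and 3 below, with a median of 0.38. Markers of other lung cells were present too. The 10 alveolar type 2 markers summed to 6108 to 7458 CPM in negative and 552 to 1065 CPM in positive libraries, and 6 of them were called lower. The 8 club cell markers summed to 4906 to 8304 and 8728 to 21942 CPM, with none called. With the mouse as a block, described below, 5 of the 8 club cell and 3 of the 10 multiciliated markers were called higher and 8 of the 10 alveolar type 2 markers lower. Leukocyte markers (8 listed, 3 tested, none called without the block) were at 11.5 to 93.7 and 13.7 to 30.1 CPM. All 3 tested were below 0, and Ptprc was called lower with the block (log2 fold change -2.37, edgeR adjusted p = 0.00502). Ptprc had 448 reads over the negative and 94 over the positive libraries. Alveolar type 1 markers (7 listed, 6 tested, Pdpn without a read) summed to 284 to 417 and 656 to 880 CPM, a sum carried by Cldn18, which was called higher (means of 244 and 661 CPM). Of the 6 tested, 4 were below 0, with a median log2 fold change of -1.17, and Ager was called lower with the block (-2.31; edgeR adjusted p = 0.0135). Basal markers (5 listed, 2 tested, Trp63 called lower) summed to 10.1 to 17.5 and 1.01 to 2.06 CPM. Endothelial (6 listed, 2 tested, Cldn5 without a read) and mesenchymal (7 listed, 6 tested) markers gave no call, at 7.60 to 11.1 and 9.53 to 27.7 CPM for the first and 23.8 to 76.4 and 3.97 to 39.2 CPM for the second. In bulk RNA, fewer cells of a type and less RNA per cell cannot be told apart. The part of these other cells in the differences below was not tested.

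Of the D-type cyclins, Ccnd2, which encodes cyclin D2, differed most between the fractions. Ccnd2 (chromosome 6, 127125162 to 127152193, minus strand, GRCm38) gave, for mice 1, 2 and 3, 29.5, 41.3 and 25.2 CPM without tdTomato and 95.8, 203 and 131 CPM with it. The lowest positive library lay above the highest negative one, and mouse 2 was the highest in each fraction. These levels rest on 129 to 215 reads per negative and 567 to 1280 per positive library. Within mice 1, 2 and 3 the positive library held 3.25, 4.90 and 5.22 times the negative level, and the fitted log2 fold change was 2.16 ± 0.291 (SE, n = 3 each). Ccnd2 ranked 20 from the top of the 13175 genes tested by log2 fold change. It was picked for this rise, so the rank describes the choice and was given no test. Over every alternative computed, all on these same libraries, its log2 fold change stayed between 1.83 and 2.45. Without the positive library of mouse 1 it was 2.39. The annotated antisense genes 9330179D12Rik and Gm43126 share 368 and 372 exon bases with Ccnd2. They had at most 1 read in any library. With no strand setting known, reads of Ccnd2 and of these genes cannot be told apart there.

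Ccnd1, which encodes cyclin D1 (chromosome 7, 144929931 to 144939925, minus strand), stood at 29.9, 20.4 and 24.96 CPM in cells of mice 1, 2 and 3 without tdTomato. In cells with tdTomato it stood at 63.3, 60.6 and 41.1 CPM. The groups did not overlap, and mouse 3 had the smallest difference. Its log2 fold change was 1.13 ± 0.249 (SE, n = 3 each), higher in 3 of 3 mice, which edgeR did not call over all genes (adjusted p = 0.0768). With the mouse as a block, which compares the 2 fractions within each animal, Ccnd1 rose (log2 fold change 1.12 ± 0.224, SE; edgeR adjusted p = 0.00852). The blocked call held without mouse 1 (adjusted p = 0.00202) or 2 (0.0486) and was lost without mouse 3 (0.137), where the log2 fold change was 1.32. Over all genes the blocked fit called 415, and 633, 380 and 59 without mouse 1, 2 and 3. This drop without mouse 3 also applies to the blocked calls given below. Without the block Ccnd1 was called by DESeq2 (adjusted p = 0.00622), by edgeR without a filter on low counts (0.00181) and by edgeR on plain library sizes (0.0486). Ccnd1 shares 1100 exon bases with LTO1 on the other strand, and with no strand setting known, reads of the pair cannot be told apart there.

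Ccnd3, which encodes cyclin D3 (chromosome 17, 47505051 to 47599691, plus strand), reached 20.6, 11.5 and 12.7 CPM without tdTomato and 22.3, 27.1 and 14.3 CPM with it, for mice 1, 2 and 3. The groups overlapped, and the difference came mainly in mouse 2, where the ratio was 2.35 against 1.08 and 1.13 in mice 1 and 3. Its log2 fold change of 0.51 ± 0.338 (SE, n = 3 each; 95% interval -0.24 to 1.25) was not called (edgeR adjusted p = 0.624, and 0.463 with the block). Without mouse 2 the log2 fold change was 0.14.

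The paralogs ranked Ccnd2, Ccnd1, Ccnd3 by their difference in each of the 3 mice. The log2 ratio of Ccnd2 exceeded that of Ccnd1 by 0.61, 0.72 and 1.66 in mice 1, 2 and 3, and that of Ccnd3 by 1.58, 1.07 and 2.21. This order contains the choice of Ccnd2 and was given no test. The panels of levels by mouse show the slopes.

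**Figure D1:**
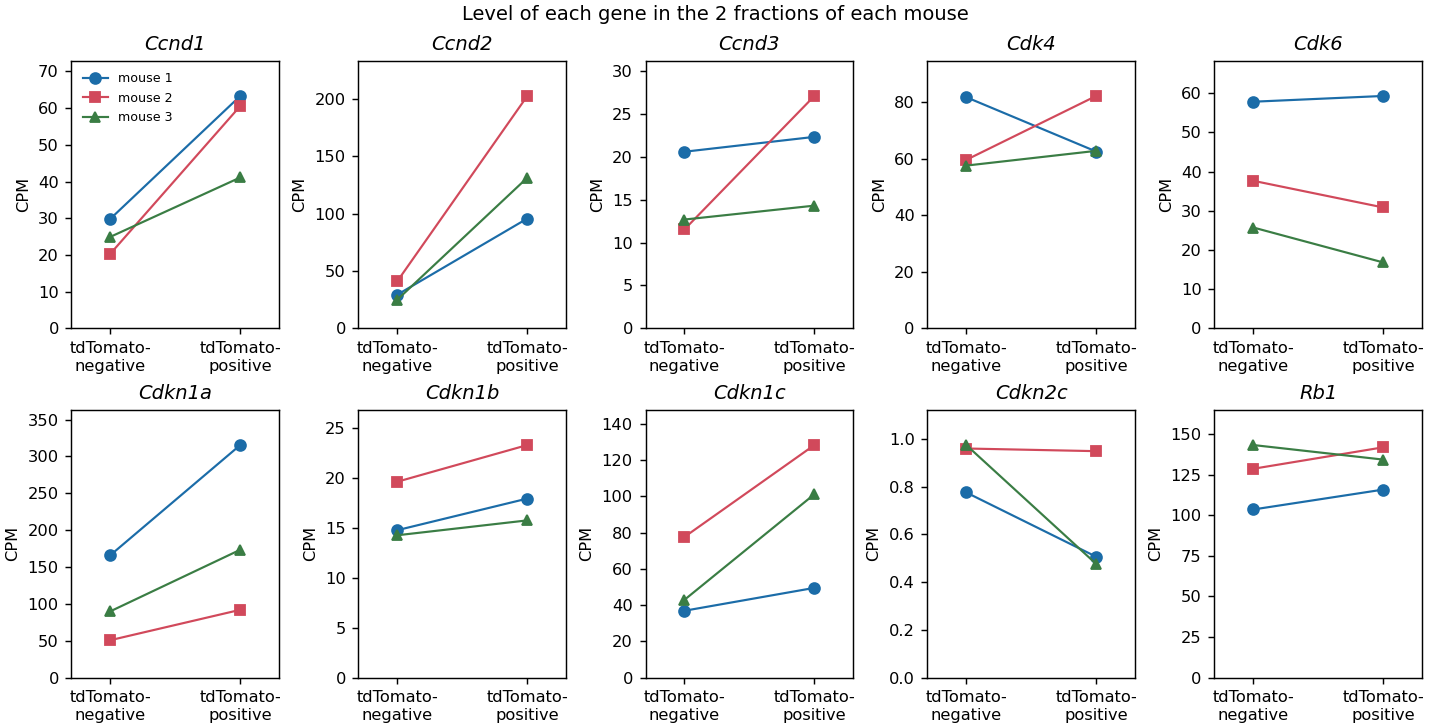
CPM (y axis, linear, from 0) of each of the 10 genes in the tdTomato-negative and tdTomato-positive library of each mouse, joined by a line per mouse. Ccnd2 and Ccnd1 lie higher in all 3 positive libraries than in any negative one, while Cdkn1a and Cdkn1c rise in each mouse from starting levels that differ between mice.

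Levels of different genes were compared per length, as CPM per kb of the union of annotated exons. On this scale Ccnd1 was the highest D cyclin in the negative fraction, at a mean of 5.32 ± 1.01, followed by Ccnd2 at 3.40 ± 0.888 CPM per kb (SD, n = 3 each), and Ccnd3 was the lowest, at 1.31 to 2.34 CPM per kb. Ccnd1 and Ccnd2 overlapped there, since in mouse 2 they stood at 4.32 and 4.39 CPM per kb. In the positive fraction Ccnd2 had the highest mean, at 15.2 ± 5.78, with Ccnd1 at 11.7 ± 2.57 and Ccnd3 at 2.42 ± 0.735 CPM per kb (SD, n = 3 each). The lead of Ccnd2 was not shared by mouse 1, where the positive library held 10.2 CPM per kb of Ccnd2 and 13.4 of Ccnd1. Ccnd2 made up 26.5, 43.8 and 28.4% of the summed D-cyclin level of mice 1, 2 and 3 without tdTomato, against 38.9, 57.4 and 57.4% with it, higher within each mouse while the groups overlapped. The share of Ccnd3 was 13.1 to 19.8% in negative and 6.70 to 9.71% in positive libraries. The D cyclins together summed to 11.8, 10.03 and 9.42 CPM per kb without tdTomato and 26.2, 37.5 and 24.3 with it, with a ratio of means of 2.81. Against the length of the longest transcript the same order held in both fractions, at 6.70, 5.05 and 3.87 CPM per kb for Ccnd1, Ccnd2 and Ccnd3 in the negative fraction.

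Neither kinase was called in either model. Cdk4, which encodes the more abundant of the kinase transcripts per length (chromosome 10, 127063534 to 127067920, plus strand), ran at 81.7, 59.5 and 57.5 CPM without tdTomato and 62.5, 82.1 and 62.7 CPM with it. It was lower in the positive library of mouse 1 and higher in those of mice 2 and 3, with a log2 fold change of 0.06 ± 0.210 (SE, n = 3 each; edgeR adjusted p = 0.937). The 95% interval of -0.40 to 0.52 covers changes in either direction. Cdk4 shares 641 exon bases with Tspan31 on the other strand, under the same limit as Ccnd1 and LTO1. The same holds for 273 to 625 exon bases of Ccnd3, Cdk6, Cdkn1a, Cdkn1c and Rb1.

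Cdk6 (chromosome 5, 3341485 to 3531008, plus strand) ran at 57.8, 37.6 and 25.7 CPM without tdTomato and 59.3, 30.9 and 16.8 CPM with it, for mice 1, 2 and 3. Mice ranked 1, 2, 3 in both fractions, with 2.25-fold and 3.52-fold between the highest and the lowest. Its log2 fold change was -0.18 ± 0.446 (SE, n = 3 each; 95% interval -1.19 to 0.82; edgeR adjusted p = 0.912), and 0.04 with library size only. Per length, Cdk4 made up 87.9% ± 2.43 of the summed level of the 2 kinases in negative and 89.4% ± 6.50 in positive libraries (SD, n = 3 each).

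Among the CIP/KIP inhibitors, Cdkn1a and Cdkn1c were higher in the positive library of each mouse. Cdkn1a, the p21 gene and a target of p53 (chromosome 17, 29090976 to 29100727, plus strand), amounted to 166, 50.7 and 89.9 CPM in tdTomato-negative cells of mice 1, 2 and 3, against 315, 91.9 and 173 CPM in tdTomato-positive cells. The groups overlapped because the mice differed by 3.27-fold in the negative and 3.43-fold in the positive fraction. Within each mouse the ratio was nearly the same, at 1.90, 1.81 and 1.93. Without a term for the mouse the log2 fold change was 0.92 ± 0.584 (SE, n = 3 each; edgeR adjusted p = 0.628). With the mouse as a block Cdkn1a rose, with a log2 fold change of 0.91 ± 0.151 (SE) and an edgeR adjusted p = 0.0018. That call survived leaving out mouse 1 (adjusted p = 0.00274) or 2 (0.000671) and was lost without mouse 3 (0.177), where the log2 fold change was 0.89. With no block it was 0.38 without the positive library of mouse 1, 1.47 without the negative library of mouse 1 and 0.90 without both.

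RefSeq promoter windows (GRCm38.p6, 250 bases before to 50 after a start) were matched for 6 of the 10 genes. The 4 others are Ccnd1, Ccnd2, Cdkn1c and Rb1. Cdkn1a has 2 starts in that table, and their windows are shown because the upstream one holds a pair of CATG cores spaced like the core of a p53 element, given here in capitals. The first window is chr17:29090729-29091028 and the second chr17:29093519-29093818, both on the plus strand.
Cdkn1a upstream start: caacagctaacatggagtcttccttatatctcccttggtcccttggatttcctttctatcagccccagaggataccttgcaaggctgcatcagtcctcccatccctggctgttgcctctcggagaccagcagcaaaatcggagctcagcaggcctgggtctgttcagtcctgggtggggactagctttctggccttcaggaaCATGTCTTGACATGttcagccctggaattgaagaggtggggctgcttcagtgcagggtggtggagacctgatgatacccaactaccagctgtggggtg
Cdkn1a downstream start: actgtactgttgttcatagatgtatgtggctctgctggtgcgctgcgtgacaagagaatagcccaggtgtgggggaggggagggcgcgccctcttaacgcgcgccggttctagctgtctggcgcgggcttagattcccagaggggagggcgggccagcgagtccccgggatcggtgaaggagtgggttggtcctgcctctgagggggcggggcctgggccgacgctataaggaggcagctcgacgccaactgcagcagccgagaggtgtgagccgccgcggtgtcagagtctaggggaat
The letters searched were CATG, any 6 bases, then CATG again, which read the same on both strands and overlap no other motif searched. The match begins 48 bases before the upstream start and 2838 bases before the downstream one. Of all 32851 windows in the table, 234 (0.712%) hold it, and none of the other windows of the 6 genes does. A match is a description of letters and not of binding.

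Other known p53 targets gave a background for Cdkn1a. Of 12 listed, 10 were tested and none was called in either direction by either model, with a median log2 fold change of 0.16. The members ran from -0.69 to 0.74, with 5 above 0 and 5 below. Ccng1, which encodes cyclin G1 and is both a p53 target and a cyclin, had the smallest p of the list without the block. Its mean was 94.4 ± 11.1 CPM without tdTomato and 72.5 ± 4.72 CPM with it (SD, n = 3 each). The log2 difference was -0.38 ± 0.174 (SE), with an edgeR adjusted p = 0.468. With the block the smallest p was that of Btg2, which was higher in the positive library of 3 of 3 mice. Its blocked log2 fold change was 0.39 (edgeR adjusted p = 0.134).

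Cdkn1c, which encodes p57 and is an imprinted gene (chromosome 7, 143458339 to 143461050, minus strand), amounted to 36.9, 77.6 and 42.9 CPM in tdTomato-negative cells of mice 1, 2 and 3. In tdTomato-positive cells it amounted to 49.5, 128 and 101 CPM. Every positive library exceeded its own negative one, by 1.34, 1.65 and 2.36 times, but the groups overlapped. Its log2 fold change was 0.83 ± 0.377 (SE, n = 3 each; edgeR adjusted p = 0.480). With the mouse as a block Cdkn1c rose, with a log2 fold change of 0.80 ± 0.193 (SE) and an edgeR adjusted p = 0.0299. The blocked call held without mouse 1 (adjusted p = 0.00124) and was lost without mouse 2 (0.0537) or 3 (0.532), where the log2 fold changes were 0.84 and 0.58. Without the block, edgeR called it once low counts were left unfiltered (adjusted p = 0.0179).

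Cdkn1b, the p27 gene (chromosome 6, 134920401 to 134925513, plus strand), ran at 14.7, 19.6 and 14.2 CPM without tdTomato and 17.9, 23.3 and 15.7 CPM with it. The groups overlapped, and within mice the ratios were 1.21, 1.19 and 1.10. The log2 fold change of 0.23 ± 0.287 (SE, n = 3 each; 95% interval -0.40 to 0.86) was not called (edgeR adjusted p = 0.815, and 0.755 with the block).

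Cdkn1a and Cdkn1c ranked the mice in opposite orders, and each kept its order in both fractions. Mice ranked 1, 3, 2 for Cdkn1a and 2, 3, 1 for Cdkn1c. The ratio of Cdkn1a to Cdkn1c CPM for mice 1, 2 and 3 was 4.51, 0.653 and 2.10 without tdTomato and 6.38, 0.716 and 1.71 with it. The leading CIP/KIP transcript per length thus differed between animals. Cdkn1a made up 68.7 and 75.9% of the CIP/KIP level in the 2 libraries of mouse 1, and Cdkn1c 67.2 and 67.0% in those of mouse 2. In mouse 3 the 2 genes were close, with Cdkn1a at 51.1 and 47.9% and Cdkn1c at 42.5 and 48.7%. Of the 9 members tested, 4 kept the order of the mice in both fractions (Cdk6, Cdkn1a, Cdkn1b and Cdkn1c), and of all genes tested 24.3% did. Among the 5705 genes at a mean of 20 CPM or more, 98.6% had a smaller range between mice than Cdkn1a, 97.7% than Cdk6 and 95.6% than Cdkn1c, while 2.09% had a smaller spread of the within-mouse ratio than Cdkn1a.

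**Figure D2:**
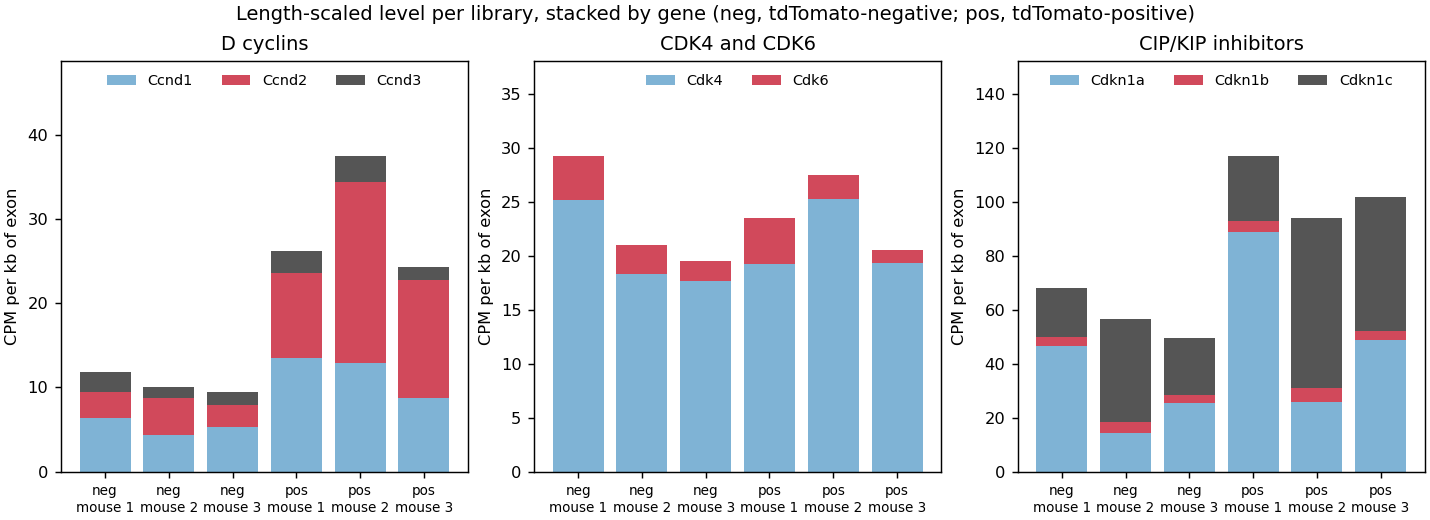
Level of each gene in CPM per kb of exon (y axis, linear, from 0), stacked per library for the D cyclins, the 2 kinases and the CIP/KIP inhibitors, with negative libraries on the left and positive ones on the right of each panel. The D-cyclin sum is 9.42 to 11.8 in negative and 24.3 to 37.5 in positive libraries, the kinase sum overlaps between the groups, and the make-up of the inhibitor sum differs between mice.

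Summed per length, the CIP/KIP inhibitors reached 68.1, 56.6 and 49.5 CPM per kb without tdTomato and 117, 93.9 and 102 CPM per kb with it, for mice 1, 2 and 3. The groups did not overlap and the ratio of means was 1.80. The kinase sum was at 29.3, 21.02 and 19.5 against 23.5, 27.5 and 20.5 CPM per kb, with overlap and a ratio of 1.02. The inhibitor sum was 5.76, 5.65 and 5.25 times the D-cyclin sum in the negative libraries and 4.47, 2.51 and 4.19 times in the positive ones, so inhibitor transcripts outnumbered cyclin transcripts per length in all 6 libraries. These sums include Ccnd2 and were given no test.

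Cdkn2c, the p18 gene of the INK4 family (chromosome 4, 109660876 to 109667189, minus strand), was near the limit of detection. It had 4, 5 and 5 reads without tdTomato and 3, 6 and 3 reads with it, a mean of 0.904 ± 0.111 and 0.644 ± 0.265 CPM (SD, n = 3 each). It was not tested, and at this depth no difference could be resolved. Of the other INK4 genes, only Cdkn2b, the p15 gene, was tested (log2 fold change 0.05, edgeR adjusted p = 0.980). It had 19 to 34 reads per negative library.

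Rb1, which encodes the retinoblastoma protein (chromosome 14, 73183673 to 73325822, minus strand), ran at 104, 129 and 143 CPM without tdTomato and 116, 142 and 134 CPM with it. It was higher in the positive library of mice 1 and 2 and lower in that of mouse 3. The log2 fold change was 0.06 ± 0.178 (SE, n = 3 each; 95% interval -0.33 to 0.45; edgeR adjusted p = 0.923). Of its relatives, Rbl2, which encodes the pocket protein p130 of resting cells, differed by 0.15 on the log2 scale (edgeR adjusted p = 0.895). Per length, Rb1 stood at 20.8 ± 3.34 and Cdk4 at 20.4 ± 4.12 CPM per kb in the negative fraction (SD, n = 3 each), which do not differ beyond their spread. Above both were Cdkn1a at 28.8 ± 16.5 and Cdkn1c at 25.7 ± 10.8 CPM per kb, whose spreads also overlapped those of Rb1 and Cdk4. After Ccnd1 came Cdkn1b at 3.56 ± 0.650, Ccnd2 at the 3.40 given above and Cdk6 at 2.89 ± 1.16 CPM per kb, which do not differ beyond their spread. With the longest transcript as the length, Cdk4 (32.3) stood above Rb1 (26.9).

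Of the 8 members tested besides Ccnd2, none was called by edgeR without the block, against 0.622% of all genes in either direction, 0.0455% higher and 0.577% lower. That split rests on the scaling: 6 genes were higher and 76 lower with TMM factors, and 22 higher and 54 lower with library size only. Ccnd1 alone of the 8 had an unadjusted p under 0.05 there, as did 10.7% of all genes. With the mouse as a block 3 of the 8 rose (Ccnd1, Cdkn1a and Cdkn1c) and none fell, against 3.15% of all genes called, 1.36% higher and 1.79% lower. The members were chosen with results of this contrast known, so nothing is read from these counts. Groups did not overlap for Ccnd2 and Ccnd1 of the 9 tested, and for 17.3% of all genes, 8.29% higher and 9.02% lower. The median log2 fold change was 0.51 over the 9 members tested and 0.03 over all genes. This median and the overlap count include Ccnd2, which was picked for its rise, so nothing is read from them either. The plot of fold changes shows that the block narrowed the errors of Cdkn1a, Cdk6 and Cdkn1c most and left the estimates close to where they were.

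**Figure D3:**
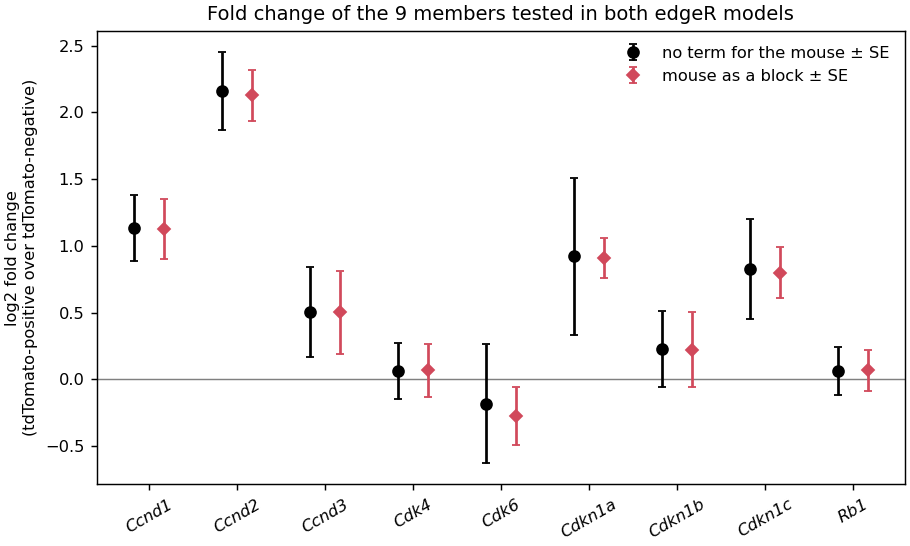
Log2 fold change (y axis, tdTomato-positive over tdTomato-negative) of the 9 members tested, from the edgeR model without a term for the mouse (black circles) and with the mouse as a block (red diamonds), with bars of 1 SE. The SE of Cdkn1a is 0.584 without and 0.151 with the block, while its estimate is 0.92 and 0.91.

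The rise of Ccnd2 and Ccnd1 was set beside the rest of the cyclin family. Of 16 other cyclins listed, 13 were tested and none was called in either direction by either model. Their median log2 fold change was 0.04, and they ran from -0.83 for Ccng2 to 0.33 for Ccnj, all below the 0.51 of Ccnd3. The cyclins and kinases that act after the D cyclins gave no call either. Of 12 genes of the cyclin E, A and B machinery, 5 were tested, with a median of -0.46 and 4 below 0. Cdk2, the partner of cyclins E and A, averaged 3.36 ± 1.01 CPM without tdTomato and 1.38 ± 1.04 CPM with it (SD, n = 3 each; edgeR adjusted p = 0.543), and Ccne1 had no read in any library. The CDK-activating kinase genes Cdk7, Ccnh and Mnat1, which activate CDK4 and CDK6 by phosphorylation, had a median of 0.08, with Ccnh at 0.39 (edgeR adjusted p = 0.718).

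Downstream of RB, 7 of 10 E2F and DP factors were tested and none was called, with a median log2 fold change of 0.21. E2f4, a repressor E2F that also acts in multiciliogenesis, had the smallest p. Its mean was 24.9 ± 2.37 CPM without tdTomato and 41.1 ± 10.8 CPM with it (SD, n = 3 each), and the groups did not overlap. The log2 difference of 0.73 ± 0.252 (SE) was not called (edgeR adjusted p = 0.322, and 0.118 with the block). Of 15 E2F target genes of DNA replication and mitosis, 11 were tested, 7 above 0 and 4 below, with a median of 0.15 and none called without the block. Top2a, the topoisomerase of dividing cells, averaged 8.18 ± 3.75 CPM without tdTomato and 1.01 ± 0.631 CPM with it (SD, n = 3 each), on 29 to 65 reads per negative and 2 to 10 per positive library. It fell with the block (log2 fold change -3.01; edgeR adjusted p = 0.00917, against 0.0643 without), a call lost without mouse 2 (0.0995) or 3 (0.0998), with log2 fold changes of -2.76 and -3.74. Without the block DESeq2 and the fit with no expression filter also called Top2a (adjusted p = 0.001 and 0.000693). Mki67 of the same list, chosen here after its values were seen, differed by -2.77 and was not called (edgeR adjusted p = 0.188, and 0.0804 with the block). In mouse 3 Mki67 was higher with tdTomato, at 16 reads against 10.

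Of 8 genes that control the turnover of D cyclins and p27, 7 were tested, with a median log2 fold change of 0.30. Usp2, a deubiquitinase known to stabilize cyclin D1, averaged 59.3 ± 9.69 CPM without tdTomato and 99.5 ± 16.9 CPM with it (SD, n = 3 each), without overlap. It rose with the block (log2 fold change 0.74; edgeR adjusted p = 0.0217, against 0.187 without). That call was lost without mouse 2 (0.0549) or 3 (0.307), with log2 fold changes of 0.68 and 0.81, and without the block it was made with no expression filter (0.0401). Of 13 multiciliogenesis genes, which include E2f4, E2f5 and Ccno from the lists above, 10 were tested, with a median of 0.34. Foxj1, the master regulator of motile cilia and also one of the multiciliated markers above, was the 1 gene of that list called with the block (edgeR adjusted p = 0.000129, against 0.665 without), and its call was lost without mouse 3 (0.0777), where the log2 fold change was 1.19. Its levels of 484, 138 and 116 CPM without tdTomato and 870, 402 and 270 CPM with it were highest in mouse 1, as for Cdkn1a, but ranked mice 2 and 3 the other way.

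**Figure D4:**
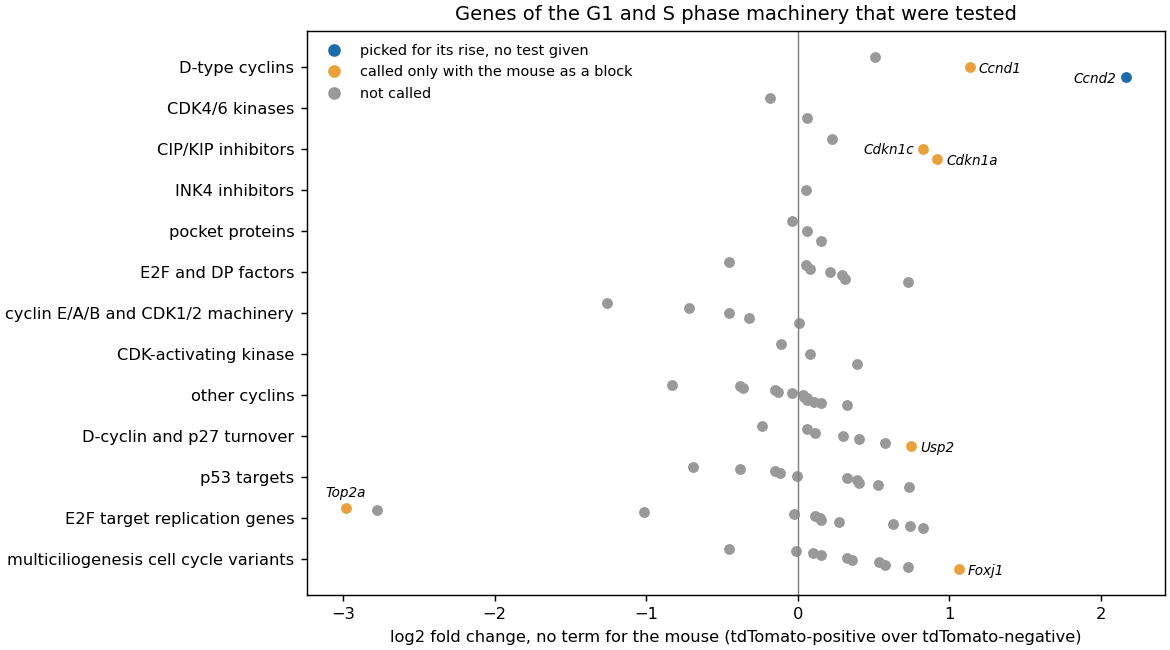
Log2 fold change (x axis, tdTomato-positive over tdTomato-negative, model without a term for the mouse) of each tested gene in the lists of cell cycle, p53 target and multiciliogenesis genes (rows). Each point is 1 gene of 1 list, so a gene in more than 1 list is drawn in each. Ccnd2 (blue) was picked for its rise, the 6 orange genes passed the threshold with the mouse as a block, and no grey gene passed in either model. Ccnd1 and Ccnd2 lie to the right of all other cyclins, and Top2a and the grey Mki67 lie far to the left.

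The pattern of Ccnd2 over the 6 libraries was compared with that of 8216 genes that had an average log2 CPM of at least 3. The most alike by Pearson correlation of log2 CPM were Knop1 (0.994), Fam189a2 (0.993), Cap1 (0.993), Tmem38a (0.988) and Tuba1a (0.985). Their differences were smaller than that of Ccnd2, from 1.28-fold for Knop1 to 1.79-fold for Tmem38a. Cap1, an actin-binding protein, was at 64.7 ± 5.72 and 92.5 ± 7.91 CPM, and Tuba1a, an alpha tubulin, at 198 ± 27.5 and 328 ± 31.2 CPM (SD, n = 3 each). The most opposite were Atp6v1c2 (-0.992), Col12a1 (-0.990), Brd7 (-0.989), Txlng (-0.987) and Tc2n (-0.985). Col12a1, a collagen chain, averaged 28.1 ± 8.80 CPM without tdTomato and 6.12 ± 1.34 CPM with it (SD, n = 3 each). Among the members, Ccnd1 (0.825) and Cdkn1c (0.810) were the most alike and Cdkn1a stood at 0.268. These genes were chosen for their likeness and given no test, and the correlations are descriptions over 6 libraries that share mice in pairs and differ by fraction.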

How the data were processed

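Each deposited file lists whole-number read counts by gene symbol for a single library. Per the submitters' processing notes, the tools were STAR 2.4.2a, cutadapt 1.7.1, DESeq2, FastQC and HTSeq, with mm10 and GRCm38.p4 as builds. The strand setting is not given in the sources used here. The 5 summary entries at the foot of each file name no gene and were dropped. Reads in no gene made up 41.0 to 49.4% of the total over all entries, the summary ones included.

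Levels are CPM with TMM factors. Genes kept by filterByExpr (count minimum 10) were fitted in edgeR 4.0.16 (R 4.3.3, quasi-likelihood, robust), with Benjamini-Hochberg adjustment over 13175 genes and calls at an adjusted p under 0.05. Tests were two-sided, and standard errors came from the fold change and its F statistic. The models were tested on simulated data. Floors of 3 reads cover counting error only. Exon lengths and positions are from GENCODE M21.

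The labels pair both libraries of each mouse. Deviations from group means correlated at 0.247, 0.258 and 0.342 within mice.

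Members and lists were chosen with earlier results of these data known. Named genes were the members, list genes called by either model or else of smallest p, and the 5 genes most and least correlated with Ccnd2. Alternatives were RLE factors, library size only, no filter, a stricter filter, DESeq2 1.42.0, limma-voom (limma 3.58.1), the replicate block, and leaving out each library or mouse. The block without each mouse was added after seeing the data.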

Additional observations from a re-analysis of the deposited data

How the results depend on the processing

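The count of 82 genes called was 413 with no filter, 245 with DESeq2 and 415 with the mouse as a replicate block, and 22 to 113 when 1 library or 1 mouse was left out. The block without mouse 1 or 2 gave 633 and 380 (chosen after seeing the data), and without mouse 3 it gave 59. Of the members besides Ccnd2, 0 were called without the block, 1 with library size only, 2 with no filter, 1 with DESeq2 and 3 with the replicate block; the block gave 3 without mouse 1, 2 without mouse 2 and 0 without mouse 3. In every run that left out 1 library or 1 mouse without the block the count was 0. Library size only shifted the median difference over all genes from 0.03 to 0.286 (log2).

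Log2 fold changes turned in sign for 5 genes that no alternative called. With 1 library or mouse left out, Cdk4 ran from -0.15 to 0.29, Cdk6 from -0.76 to 0.17, Rb1 from -0.058 to 0.17, Cdkn2b from -0.18 to 0.36 and Rbl2 from -0.20 to 0.45. Cdk6 was at 0.043 with library size only. With the replicate block, Cdk4 was at -0.13 and Rbl2 at -0.15 once mouse 2 was left out, and Cdkn2b at -0.086 once mouse 3 was. The causes were not tested. Depth limits Cdkn2c, with 14 reads over all tdTomato-negative and 12 over all tdTomato-positive libraries.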

Other observations

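Several genes of these lists had too few reads to be tested. Cdkn2a, the INK4 gene of p16, had no read in the negative libraries and 2, 0 and 1 reads in the positive libraries of mice 1, 2 and 3. Cdkn2d, the p19 gene, had 7, 7 and 4 reads without tdTomato and 17, 5 and 10 with it. Bbc3, a p53 target chosen here after its values were seen, had 34 reads in the positive library of mouse 1 and 2 to 10 in each of the other 5. Other p53 targets went both ways in mouse 1. Bax had 23 reads without tdTomato and 42 with it, and Phlda3 36 and 24. E2f1, also chosen after its values were seen, had 14 reads in the positive library of mouse 1 and 1 to 3 in each of the other 5. The other untested genes of its list, E2f3 and E2f8, had 2 and 0 reads in that library, against 22 and 3 in the negative library of mouse 1.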
